A study of Mus musculus with 6 samples.

Results

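Cardiac sodium, calcium and pacemaker channels were examined through 8 genes: Scn4a and Scn4b for sodium channels, Cacna1c, Cacna1g, Cacna1h and Cacnb2 for calcium channels, and Hcn2 and Hcn4 for pacemaker channels. A probe set, a group of array probes for 1 transcript, counted as a member when its annotated gene symbol was one of these names. This gave 9 probe sets of 6 genes, among 34945 probe sets and 18194 genes with a single annotated symbol. No annotated probe set matched Scn4a or Hcn4, and these genes were not analysed here.

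RNA came from the heart apex of 6 male mice aged 6 to 7 weeks, with 1 heart on each array. All 6 animals were Fog2flox/delta, with 1 floxed and 1 deleted allele of Fog2 (official symbol Zfpm2), whose protein binds GATA transcription factors and alters their activity. In 3 hearts the alpha MHC Cre transgene was present. Its promoter, that of the α-myosin heavy chain gene, drives Cre recombinase in cardiomyocytes, so other cell types of the apex are not its target. The other 3 hearts had no Cre. They carried the deleted allele too and are not wild type, and Cre was always combined with a floxed allele, so effects of the Cre protein and of losing Fog2 cannot be told apart. Below, no_Cre 1 to 3 and aMHC_Cre 1 to 3 are the single hearts, labelled as biological replicates, and p-values measure the spread between these hearts.

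Voltage-gated sodium channels open at the start of each heartbeat and carry the fast upstroke of the action potential. A large pore-forming α subunit is joined by small β subunits, single-span membrane proteins that set how readily the channel opens and closes. L-type calcium channels then admit the calcium that triggers contraction, with Cacna1c encoding the pore and Cacnb2 a cytoplasmic β subunit that brings the pore to the membrane. T-type calcium channels, encoded by Cacna1g and Cacna1h, open at more negative voltages. They are prominent in pacemaker cells and in the fetal heart and sparse in healthy adult ventricle. HCN channels carry the pacemaker current, and Hcn4 is typical of the sinus node.

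The members lay on arrays whose medians ranged from 5.72 to 5.81 on the log2 scale. Across the probe sets tested, arrays of 1 group correlated at 0.980 to 0.987 and arrays of different groups at 0.964 to 0.973, where probe sets of 1 array are not independent. The 3' minus 5' signal of Actb, a sign of RNA quality, was 0.30 to 0.41 without Cre and 0.25 to 0.29 with Cre, and that of Gapdh -0.14 to -0.08 and -0.07 to -0.04. Neither overlapped between groups, they moved in opposite directions, and their part in the results was not tested. All 7 cardiomyocyte markers were tested and 0 passed, with a summed signal of 16.26 to 16.29 without Cre and 16.24 to 16.30 with Cre (log2). Several of these markers read close to the array maxima of 13.97 to 14.00, where differences may be compressed. The targeted gene, Zfpm2, had probe sets that differed in opposite directions, by -0.88 (limma adjusted p 0.0052 in the filtered fit described below, 0.068 in a fit of all probe sets) and 1.68 (0.00014 and 0.014). The position of their probes relative to the deletion was not known, so they do not check it.

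Sequences upstream of the members' transcription starts are shown because Fog2 acts through GATA factors, which bind DNA at a short GATA-containing word. RefSeq promoters of build GRCm38.p6, each 300 bases long, were found for Scn4b, Hcn2, Cacnb2 (2 starts), Cacna1c (3 starts), and also for Scn4a and Hcn4. They were searched on both strands for the GATA words AGATAA or AGATAG, as well as TGATAA or TGATAG with another first base, for the TATA box word TATAAA, and for the T-box core AGGTGT. Over all 32851 promoters of this length, 29.8% held a GATA word, 13.6% held TATAAA and 13.7% held AGGTGT. Such GATA words were found at 2 of the 3 Cacna1c starts and at no other member start. AGGTGT was found at the remaining Cacna1c start and at Hcn4. The Scn4b promoter held none of these words, which says only that these letters are not in this window, and its GC content was 66.3% against a median of 52.7%. The 250 bases before the start are printed 5′ to 3′ for Scn4b (chr9:45138374-45138623, plus strand), the member that differed most. They are also printed for the Cacna1c starts with a GATA word (start 1 at chr6:119196410-119196659 and start 3 at chr6:118757975-118758224, both minus strand), where capitals mark that word.
Scn4b: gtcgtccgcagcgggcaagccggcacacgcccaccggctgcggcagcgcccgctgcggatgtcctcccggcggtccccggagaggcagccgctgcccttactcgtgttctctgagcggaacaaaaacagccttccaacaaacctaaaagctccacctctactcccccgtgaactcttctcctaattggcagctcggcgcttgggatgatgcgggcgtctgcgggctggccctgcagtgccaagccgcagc
Cacna1c start 1: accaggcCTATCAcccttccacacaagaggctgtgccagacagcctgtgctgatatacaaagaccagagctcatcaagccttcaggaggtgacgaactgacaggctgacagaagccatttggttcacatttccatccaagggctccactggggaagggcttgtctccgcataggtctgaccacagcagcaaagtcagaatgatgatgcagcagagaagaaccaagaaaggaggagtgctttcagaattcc
Cacna1c start 3: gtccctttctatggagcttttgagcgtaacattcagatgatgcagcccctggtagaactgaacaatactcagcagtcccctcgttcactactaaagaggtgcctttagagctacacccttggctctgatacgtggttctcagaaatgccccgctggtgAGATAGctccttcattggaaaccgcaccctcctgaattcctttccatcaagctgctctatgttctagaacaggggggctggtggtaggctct
In start 1 the word is TGATAG on the opposite strand, with its first printed base at -243 from the start of transcription. In start 3 it is AGATAG on the printed strand at -92. A match is a description of these letters and not of a site in use.

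The comparison of hearts with and without Cre asks how these channel transcripts differ when cardiomyocytes carry the recombinase that removes the floxed Fog2 allele. Scn4b, a sodium channel β subunit, fell by 3.13 on the log2 scale, and it was the only one of the 6 measured members to pass the test. Its signal with Cre was in the dim part of the arrays, and the difference was -1.10 with 64 added to the unlogged signal. Leaving out any single heart ended the call. Probe sets of the L-type channel genes Cacna1c and Cacnb2 and the pacemaker channel gene Hcn2 were lower, by -0.26 to -0.35, without passing the test. Their groups did not overlap, as for 12.1% of all tested probe sets that were lower with Cre without overlap. The other Cacna1c probe set overlapped between groups and differed by -0.09 (limma adjusted p 0.84). The T-type genes pointed in opposite directions, Cacna1g lower and Cacna1h higher, and neither passed. Beside these small differences, all 5 fibroblast markers were higher with Cre, with a median of 0.54, and 2 of them rose (Col1a1, a collagen chain, by 1.41 and Lum, a matrix proteoglycan, by 0.74). The summed signal of the fibroblast list was 13.02 to 13.31 without Cre and 13.58 to 13.69 with Cre, and its part in the members' differences was not tested.

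**Figure D1:**
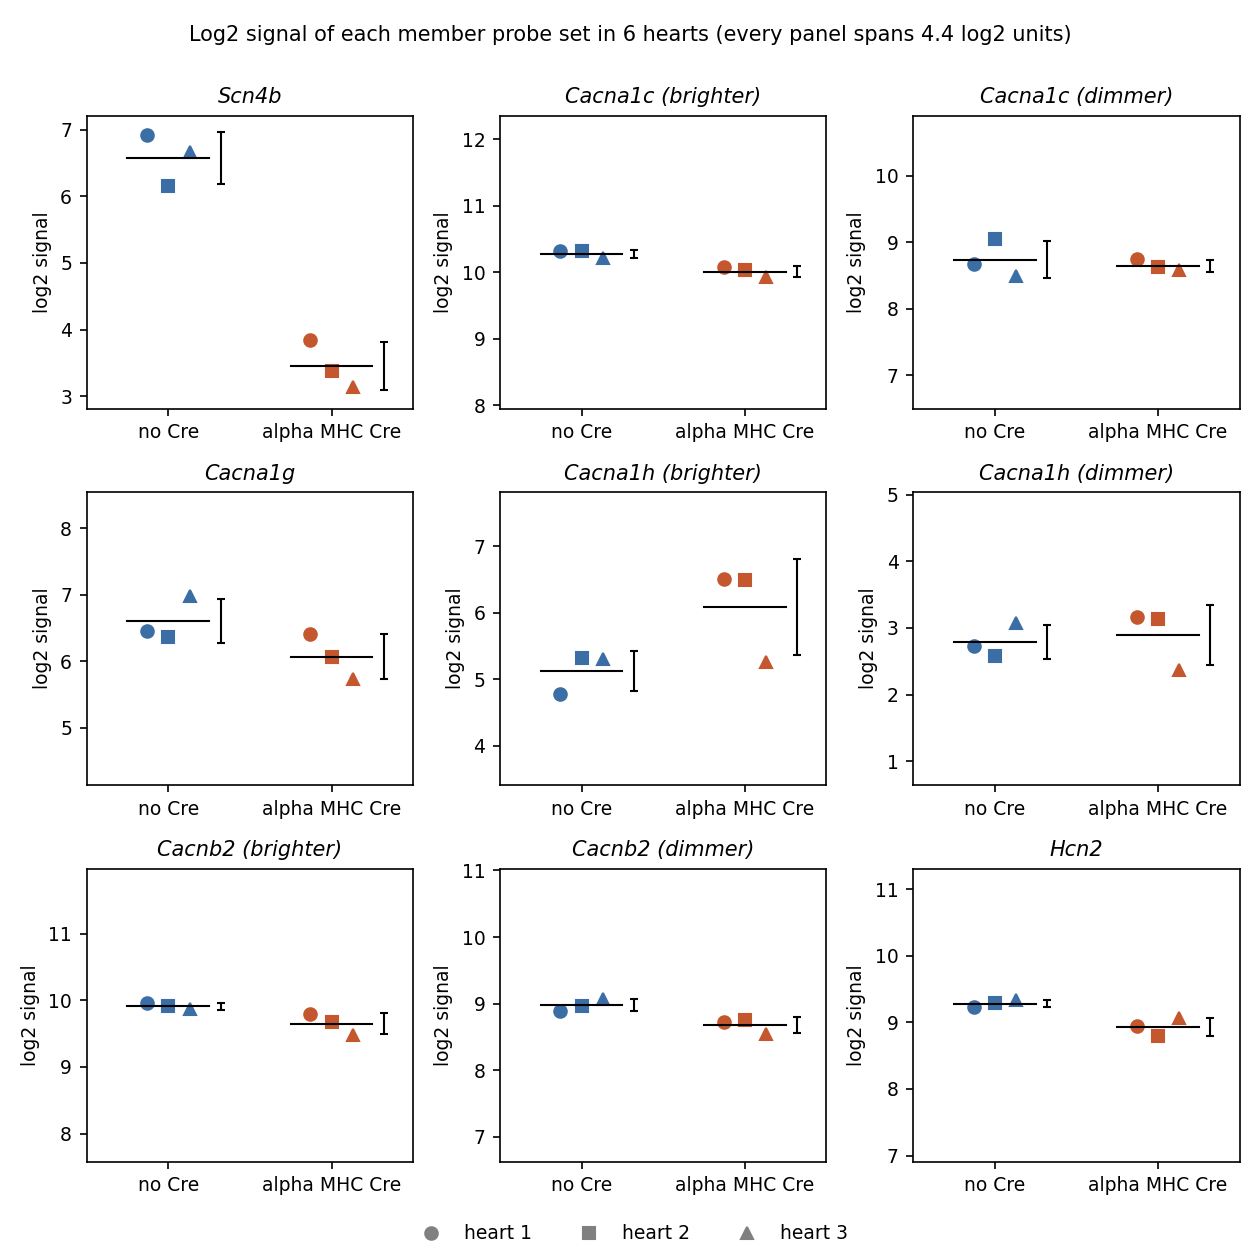
Log2 signal (vertical axis) of the 9 member probe sets in 3 hearts without Cre (blue) and 3 with alpha MHC Cre (orange). Symbols are single hearts, horizontal lines group means and bars 1 SD, and every panel spans the same log2 range. Scn4b fell from 6.58 to 3.45, while the mean differences of the other members lay between -0.53 and 0.95.

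Scn4b read 6.92, 6.16 and 6.66 in no_Cre 1 to 3 and 3.84, 3.38 and 3.13 in aMHC_Cre 1 to 3. Every heart with Cre lay more than 2 log2 units under every heart without it. The means were 6.58 ± 0.39 (SD, n = 3) and 3.45 ± 0.36, and the difference was -3.13 ± 0.27 (SE), with a 95% interval of -3.82 to -2.44. Its mean over the 6 hearts, 5.01, lay below 5.16, the mean under which the dimmest 40% of probe sets were left out. It was therefore tested in a fit of all 45037 probe sets except controls, where its adjusted p was 0.027 (limma, Benjamini-Hochberg). In that fit 0.611% of probe sets were called in either direction and 0.109% as lower with Cre, which is 49 probe sets, and 12 of these had a more negative difference than Scn4b.

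The size of the Scn4b difference depends on the low end of the scale, since the hearts with Cre read in the dim part of the arrays. Their readings of 3.13 to 3.84 lay below the array medians of 5.72 to 5.81, although each array also held 749 to 902 values below 0. With 16 added to the unlogged signal the difference was -2.05 ± 0.17 (adjusted p 1e-04), and with 64 added it was -1.10 ± 0.11 (0.0016). Leaving out any single heart in the fit of all probe sets ended the call (adjusted p 0.051 without no_Cre 2 to 0.14 without aMHC_Cre 2), although the difference stayed between -3.34 and -2.96. With only the dimmest 20% left out, a setting chosen after seeing the data, the adjusted p was 0.00092 with all hearts and 0.0020 to 0.010 with any single heart left out. Scn4b clears that filter through the hearts without Cre (mean 6.58, against 3.45 with Cre), so these values are no separate support. In tissue RNA, fewer cells that express a gene and less RNA per cell cannot be told apart, here or for any gene below.

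Markers of other cells that could hold Scn4b were counted in the filtered fit. Among 12 tested markers of atrial and conduction cardiomyocytes, 1 rose and 0 fell, with a median difference of -0.01. The summed signal of this list was 11.59 to 11.87 without Cre and 12.38 to 12.53 with Cre, and its riser was Myl7, the atrial myosin light chain, which went from 3.39 to 4.34 up to 10.72 to 11.42. The conduction system genes Cntn2, which marks Purkinje fibres, and Tbx3, a nodal transcription factor, differed by -0.26 (adjusted p 0.44) and -0.01 (0.99). Gjc1, a connexin gene of this list, went the other way, by 0.37 (adjusted p 0.12). It read 9.07 to 9.22 without Cre and 9.44 to 9.66 with it. Of the 12 differences, 5 were positive. Sln, Shox2, Isl1 and Bmp10 of this list lay under the filter. Of 7 tested markers of autonomic neurons and glia, 1 rose (Uchl1, a neuronal deubiquitinase, by 1.45) and 0 fell, with summed signals of 9.58 to 9.83 and 9.77 to 9.96. S100b, a glial marker, differed by 0.40 (adjusted p 0.14), with 5.57 to 5.84 without Cre and 6.00 to 6.29 with it. Of the 7 differences, 3 were positive. Of 6 tested skeletal muscle markers, 1 rose (Mybpc2, a fast myosin-binding protein, by 2.82) and 0 passed as lower, with a median difference of -0.24. The other 5 had negative differences. The groups did not overlap for Atp2a1, the fast-fibre calcium pump (-0.53, adjusted p 0.058), Myh2, a fast myosin heavy chain (-0.48, 0.18), and Tnni2, a fast troponin (-0.35, 0.21). Over all tested probe sets, 12.1% were lower with Cre without overlap. The summed signals of the list, which include Mybpc2, were 9.42 to 9.65 and 9.92 to 10.38. The defining skeletal genes Myh1, Myh4, Actn3, Tnnt3, Myod1 and Pvalb lay under the filter. The part of these cells in the Scn4b result was not tested.

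Likeness to Scn4b was sought only among genes above the filter and the other members, so dimmer genes were not compared. Within these, the nearest profiles over the 6 hearts were those of Arhgap20, a GTPase-activating protein, the uncharacterised A530016L24Rik, and Kcnip2. Kcnip2 encodes an accessory subunit behind the transient outward current. Likeness was the root mean square distance between profiles after each gene's own mean over the 6 hearts was taken away, and it was 0.68, 0.71 and 0.74 log2 units. Arhgap20 read 8.36, 8.37 and 8.59 without Cre against 7.12, 6.49 and 6.10 with it. Among the hearts with Cre, aMHC_Cre 1 was highest and aMHC_Cre 3 lowest for both Arhgap20 and Scn4b, whereas Kcnip2 was highest in aMHC_Cre 3. Their differences were smaller than that of Scn4b, at -1.87, -2.02 and -2.10. This likeness is a description over 6 hearts in 2 groups and carries no test.

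**Figure D2:**
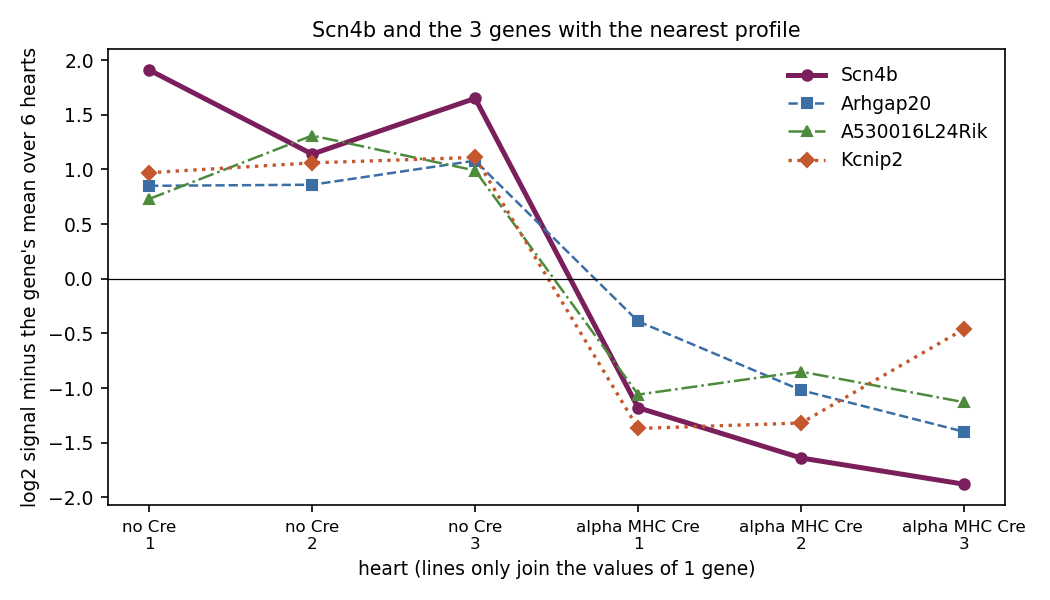
Log2 signal of Scn4b and 3 other genes, each minus its own mean over the 6 hearts (vertical axis), by heart (horizontal axis). The 3 genes are the nearest to Scn4b among genes above the filter and the other members. Scn4b lay between 1.14 and 1.91 above its mean without Cre and between -1.88 and -1.18 with Cre, the widest separation of the 4 genes.

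For comparison within the β subunit family, Scn3b was the 1 gene called among 38 different tested genes of the channel and partner lists. It went the opposite way to Scn4b, with 4.46, 4.65 and 4.63 without Cre and 5.54, 5.57 and 6.40 with Cre. All hearts with Cre lay above all hearts without it, and aMHC_Cre 3 was the highest. The difference was 1.26 ± 0.22 (SE, limma adjusted p 0.012), and 0.97 without aMHC_Cre 3 (adjusted p 0.0070). Its mean of 5.21 was just above the filter at 5.16 through the hearts with Cre (mean 5.84, against 4.58 without Cre), and without a filter it did not pass (adjusted p 0.15). Another Scn3b probe set was too dim to use, with readings from -7.54 to 3.73. Scn2b, the β2 subunit gene, differed by -0.02 (adjusted p 0.97). Scn7a, a sodium channel-like α subunit that senses sodium, was brighter with Cre by 0.39 ± 0.12 (adjusted p 0.11) and its groups did not overlap in this probe set. In all, of 4 tested sodium channel genes besides the members, 1 rose and 0 fell, with a median of 0.19. Another 6 lay under the filter. Among sodium channel partners 0 of 10 passed. Another 2, Fgf11 and Fgf14, lay under the filter and did not pass in the fit of all probe sets. There Fgf11 differed by 1.00 (limma adjusted p 0.058) in its brightest probe set. Fgf14 differed by -1.51 (0.26) in its brightest probe set and by between -1.42 and 0.38 in its others. Fgf12, which encodes an intracellular modulator of the channel, differed by -0.47 ± 0.14 (adjusted p 0.091), and Slmap, a sarcolemma-associated protein, by 0.50 ± 0.17 (0.16) in its brightest probe set, by 0.73 (0.059) in another and by -0.39 (0.11) in the dimmest of these 3.

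Of the 5 member genes bright enough for the filtered fit, 0 passed (limma, adjusted p under 0.05), where 6.24% of 13062 genes were called, 2.04% lower and 4.20% higher. At an unadjusted p under 0.05, 4 of the 5 were below the threshold, 3 of them lower with Cre, against 19.0% of all genes in either direction, 8.47% lower and 10.5% higher. Cacna1h, which was higher with Cre, averaged 5.13 without Cre and 6.09 with it. The hearts with Cre thus carried it over the 5.16 filter. With no filter, the unadjusted limma p stayed under 0.05 for Cacna1c (0.033) and Hcn2 (0.021). It did not for Cacna1h (0.056), Cacna1g (0.08) or Cacnb2 (0.075). The median difference of the 5 genes was -0.27, against -0.01 over all genes tested. Of the 7 member probe sets in the filtered fit, 4 did not overlap between groups, all lower with Cre, against 12.1% of all tested probe sets. These counts are descriptions.

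Cacna1c, the pore of the L-type calcium channel, was measured by 2 probe sets. The brighter stood at 10.32, 10.32 and 10.21 in no_Cre 1 to 3 and at 10.08, 10.03 and 9.93 in aMHC_Cre 1 to 3. These groups did not overlap, and aMHC_Cre 3 was lowest. The difference was -0.27 ± 0.11 (SE; 95% interval -0.52 to -0.02, adjusted p 0.25), a signal of 0.829 times that without Cre. The dimmer probe set read 8.68, 9.05 and 8.50 without Cre against 8.75, 8.63 and 8.58 with it. Its groups overlapped, no_Cre 2 was the highest of all hearts, and the difference of -0.09 (-0.44 to 0.26, adjusted p 0.84) became 0.07 without that heart. The probe sets of Cacna1c therefore did not give the same picture, and the fit of their mean gave -0.18 ± 0.12 (adjusted p 0.44).

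Cacnb2, the β subunit that traffics and modulates the L-type pore, was lower with Cre in both of its probe sets. The brighter read 9.96, 9.91 and 9.87 without Cre against 9.80, 9.68 and 9.48 with it, a difference of -0.26 ± 0.12 (95% interval -0.54 to 0.02, adjusted p 0.33). The dimmer read 8.89, 8.96 and 9.07 without Cre against 8.73, 8.76 and 8.54 with it, a difference of -0.30 ± 0.12 (-0.57 to -0.03, adjusted p 0.23). In both, no heart with Cre reached any heart without it, and aMHC_Cre 3 was lowest. Without that heart the brighter probe set differed by -0.17. Neither passed the test.

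No other calcium channel gene passed the filtered fit. Cacna2d1, the α2δ subunit that accompanies Cacna1c in heart, read 10.10, 9.92 and 10.57 without Cre against 10.34, 10.48 and 10.02 with it, with overlapping groups and, in this brightest of its probe sets, a difference of 0.08 ± 0.19 (adjusted p 0.88). Of 9 tested calcium channel genes besides the members, 0 rose and 0 fell, with a median of -0.09, and 11 lay under the filter. Among those, Cacna1s, the L-type pore of skeletal muscle, read 4.98, 4.60 and 5.04 without Cre against 1.59, 2.80 and 2.49 with it. Its groups did not overlap, at signals so low that the fitted difference of -2.58 has little meaning as a fold, and it did not pass in the fit of all probe sets (adjusted p 0.058). Cacng3, a γ subunit gene of the nervous system, was called in that fit at -0.96 (adjusted p 0.031), again at the dim end, with 3.34 to 3.50 without Cre and 2.41 to 2.50 with Cre. Cacna1s and Cacng3 were singled out after their values were seen. Of 11 tested calcium channel partners 0 passed. Rrad, a small GTPase that inhibits L-type current, came nearest, with 10.67, 11.05 and 10.76 without Cre against 10.29, 10.10 and 10.48 with Cre and a difference of -0.54 ± 0.15 (adjusted p 0.077).

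**Figure D3:**
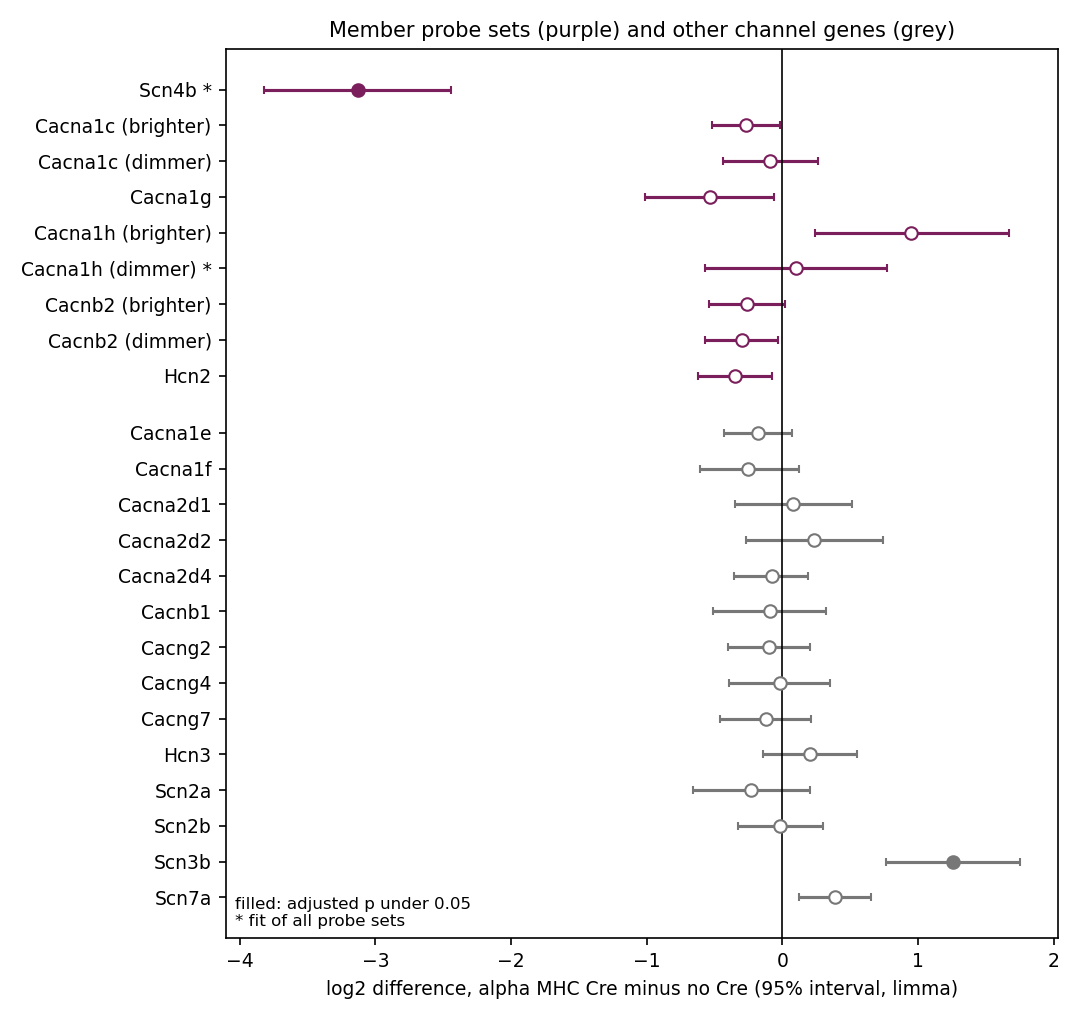
Log2 difference of hearts with alpha MHC Cre minus hearts without Cre (horizontal axis) with its 95% interval from limma, for the member probe sets (purple) and the other tested sodium, calcium and pacemaker channel genes (grey). Filled points passed at an adjusted p under 0.05, and a star marks probe sets under the filter, taken from the fit of all probe sets. Scn4b at -3.13 and Scn3b at 1.26 are the filled points.

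The T-type channel gene Cacna1g read 6.46, 6.37 and 6.98 without Cre against 6.41, 6.06 and 5.73 with it. The highest heart with Cre lay between the hearts without Cre, so the groups overlapped. The difference was -0.53 ± 0.21 (95% interval -1.01 to -0.06, adjusted p 0.22), and it ranged from -0.70 to -0.34 with single hearts left out.

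Cacna1h, the other T-type gene measured, was represented by a brighter and a dimmer probe set. The brighter read 4.78, 5.32 and 5.30 without Cre against 6.51, 6.49 and 5.26 with it. The hearts aMHC_Cre 1 and aMHC_Cre 2 lay more than 1 log2 unit above all hearts without Cre, while aMHC_Cre 3 lay among them. The difference was 0.95 ± 0.32 (95% interval 0.24 to 1.67, adjusted p 0.14). Without aMHC_Cre 3 it was 1.37 ± 0.19 and passed (adjusted p 0.0055), so this heart decides the call in the filtered fit. With 64 added to the unlogged signal the difference in that fit was 0.44 (adjusted p 0.13). The brighter probe set was above the filter at 5.16 through the hearts with Cre (mean 6.09, against 5.13 without Cre). In the fit of all probe sets its interval was -0.03 to 1.94 (limma adjusted p 0.42). The dimmer probe set read 2.73, 2.58 and 3.07 without Cre against 3.16, 3.14 and 2.37 with it, under the filter, with a difference of 0.10 (-0.57 to 0.77) that had no steady sign when hearts were left out. There too aMHC_Cre 3 was the lowest heart.

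To set the T-type genes side by side within hearts, the log2 signal of Cacna1g was taken from that of Cacna1h within each heart. The result was -1.68, -1.05 and -1.69 in no_Cre 1 to 3 and 0.10, 0.42 and -0.48 in aMHC_Cre 1 to 3. All hearts with Cre lay above all hearts without it, including aMHC_Cre 3. The group difference was 1.49 (-1.47 ± 0.37, SD, n = 3, against 0.02 ± 0.46), with p = 0.1 in a two-sided exact permutation test, the smallest value that 3 hearts against 3 can give, so this test could not reach 0.05. It was 0.74 with 64 added to the unlogged signal. Corresponding comparisons of Hcn4 with Hcn2 and of Scn4a with Scn4b were planned and not analysed here, so only 1 of 3 pairs was tested and no adjustment was needed.

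**Figure D4:**
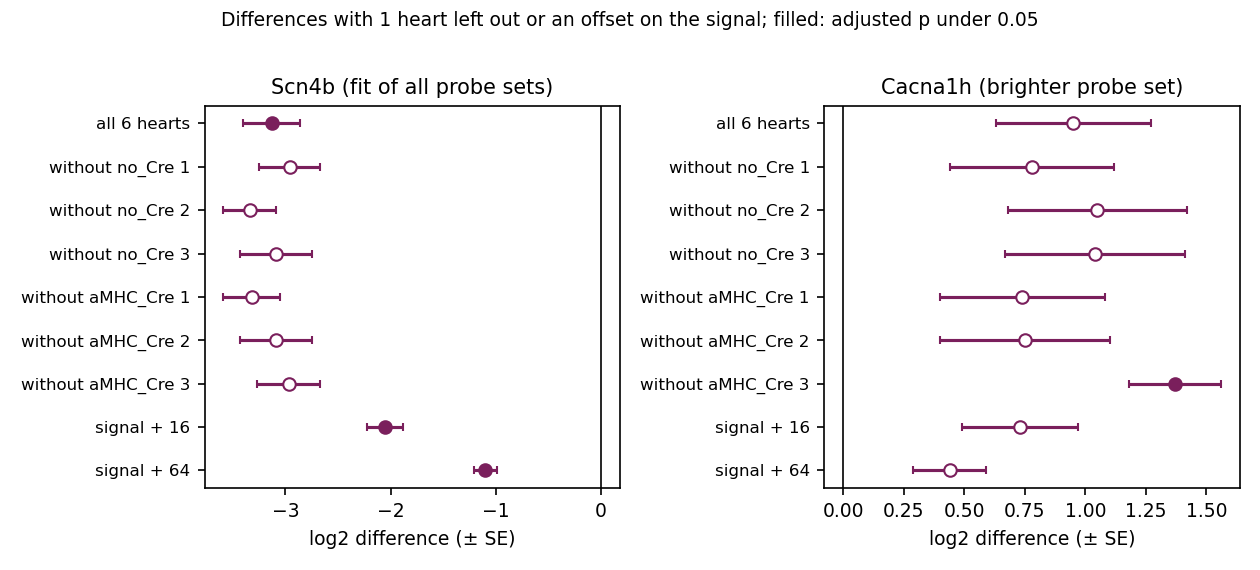
Log2 difference ± SE (horizontal axis) of Scn4b and of the brighter Cacna1h probe set with all 6 hearts, with each heart left out, and with 16 or 64 added to the unlogged signal. Filled points passed at an adjusted p under 0.05. Scn4b stayed between -3.34 and -2.96 when hearts were left out, and Cacna1h passed only without aMHC_Cre 3.

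Hcn2, a pacemaker channel gene that is also active in ventricular muscle and nerve, read 9.23, 9.29 and 9.33 without Cre against 8.94, 8.80 and 9.06 with it. The groups did not overlap, and here aMHC_Cre 3 was the highest of its group. The difference was -0.35 ± 0.12 (SE; 95% interval -0.62 to -0.08, adjusted p 0.15), which is 0.785 times the signal without Cre. It ranged from -0.41 to -0.28 with single hearts left out and did not pass in any of these fits. Hcn3 differed by 0.20 ± 0.15 (adjusted p 0.56), with overlapping groups of 6.11, 6.55 and 6.22 without Cre and 6.32, 6.53 and 6.64 with Cre. Of 4 tested pacemaker channel partners 0 passed. Rest, a transcription factor that represses fetal cardiac genes including HCN genes, differed by 0.02 (adjusted p 0.97).

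The lowest of the 6 hearts was aMHC_Cre 3 for Scn4b, the brighter Cacna1c, Cacna1g, the dimmer Cacna1h and both Cacnb2 probe sets. How often this heart was lowest over all probe sets was not counted, so this is not shown to be particular to the members. As 7 of the 9 member probe sets were lower with Cre, a lowest heart with Cre is common among them. Hcn2 was lowest in aMHC_Cre 2. The array of aMHC_Cre 3 had a median of 5.77, within the range of the others.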

How the data were processed

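The deposited values are log2 probe set signals from PLIER, per the submitters' processing notes, which joins the probes of a probe set. Settings, background correction and normalization were not given in the sources used here, and base 2 was inferred from the values. Array medians differed by less than 0.1, so values were used as deposited. Of 45101 probe sets, 64 controls and the 40% with the lowest mean (18015) were left out, leaving 27022. The group difference was fitted in R 4.3.3 by limma 3.58.1 (lmFit, eBayes, two-sided, no covariates), with Benjamini-Hochberg adjustment at 0.05. Members under the filter were taken from a fit of all 45037 probe sets except controls. The procedure was tested on simulated data.

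Symbols came from the platform annotation, and only probe sets with 1 symbol were named (34945; 932 have several and 9160 none). A gene stands for its brightest probe set. Members, lists and tests were chosen with earlier results of these data known. Named were all members, every list gene past the threshold, Cacna2d1 and Hcn3, and the 3 nearest profiles of each called member, sought among genes above the filter and the other members. Names outside this rule (Scn2b, Scn7a, Fgf11, Fgf12, Fgf14, Slmap, Rrad, Rest, Cacna1s, Cacng3 and the markers) were chosen after their values were seen. Endothelial (0 of 6), smooth muscle and pericyte (0 of 6), fibroblast (2 of 5, both higher) and macrophage (0 of 4) markers were counted likewise. The number of arrays and, for dim probe sets, signal near background limit the precision. Alternatives were other normalizations, filters, offsets, variance models, array weights, thresholds, the replicate number as a block and leaving out each heart. Some listed genes are not reported here.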

Additional observations from a re-analysis of the deposited data

How the results depend on the processing

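The difference of the probe set that stands for each member gene kept its direction under every setting in which it was fitted (with a 60% filter only Cacna1c, Cacnb2 and Hcn2 were); the sign turned only for the dimmer Cacna1c probe set (-0.21 to 0.07 with single hearts left out, 0.07 without no_Cre 2) and the dimmer Cacna1h probe set (-0.04 to 0.36, with -0.01 without no_Cre 2, -0.04 without aMHC_Cre 1 and -0.03 without aMHC_Cre 2). The count of member genes called was 0, but 1 (Scn4b) with no filter, with a 20% filter, with a filter on the 3 highest arrays and with no filter plus trend and robust variances, the last 3 chosen after seeing the data, and 0 to 1 with single hearts left out (1, Cacna1h, without aMHC_Cre 3). The 20% filter and the filter on the 3 highest arrays keep Scn4b through the group where it is bright. The count of channel and partner genes called was 1 (Scn3b). It was 0 at an adjusted p under 0.01, 3 under 0.1, 2 with an offset of 16 and 3 with an offset of 64. It was 3 with trend and robust variances, 2 with the 20% filter and 2 with the filter on the 3 highest arrays. With no filter plus trend and robust variances it was 5. The count was 1 with any single heart left out. It was also 1 with no filter and with the 60% filter, but there the gene called was lower with Cre, so it was not Scn3b. Over all probe sets 1412 were called, 529 under 0.01, 2220 under 0.1, 275 with no filter, and 600 to 1075 with single hearts left out (600 without aMHC_Cre 2, 905 without aMHC_Cre 3, 913 without no_Cre 1 and 923 without aMHC_Cre 1). Same-numbered hearts did not deviate together (correlations of -0.06, 0.21 and -0.19), so the numbers do not pair them; with the replicate number as a block 909 probe sets were called, and Scn4b differed by -3.13 with an adjusted p of 0.24 in the fit of all probe sets (0.0074 with the 20% filter). The causes of these changes were not tested. The mean over probe sets could not differ for the T-type pair, where each gene has 1 probe set above the filter, and the pairs with Hcn4 and Scn4a were not run. Signal near background limits Scn4b with Cre, Cacna1h and Scn3b.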
